A study of Mus musculus with 17 samples.

Results

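Threonine, glycine and one-carbon metabolism was followed through 10 genes in mouse embryonic stem cells with and without *Usb1*. The genes were taken by symbol from the table of the 54532 genes of the study, in which 11 rows carry one of the symbols. A second row named *Gcat* reached at most 0.122 TPM (read numbers scaled by gene length and library size) and was not used. The 10 genes were put together with results of these data known, among them the fall of *Tdh* under retinoic acid (RA) in wild-type cells, and the record of that choice does not say which other values guided it. Their changes under RA are therefore given as a description, without a test. Differences between genotypes in these changes are printed with p-values for members other than *Tdh*. Whether those changes, or the differences between genotypes on a day, guided the choice is not recorded. All p-values of the members are therefore descriptive. The cells were R1/E, a line of embryonic stem cells, sequenced before RA treatment (day 0, self-renewal culture) and after 1 and 3 days of RA, which drives these cells out of pluripotency. There were 17 libraries, with 3 biological replicates for each group of genotype and day except wild-type day 0, which had 2. The *Usb1* knockout libraries were all made from 1 CRISPR/Cas9 line, KO-1, so that a difference between clones and the loss of *Usb1* cannot be told apart. *Usb1* encodes an exonuclease that trims the 3′ end of U6 snRNA.

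Glycine and serine feed carbon units to folate, and the folate cycle hands them on to the synthesis of purines, thymidylate and methionine. Mouse embryonic stem cells are known for an unusual route into this cycle: threonine dehydrogenase, encoded by *Tdh*, oxidises threonine in mitochondria, glycine C-acetyltransferase (*Gcat*) splits the product into glycine and acetyl-CoA, and the glycine cleavage system, whose decarboxylase is *Gldc*, loads the carbon of glycine onto folate. Serine, made from a glycolytic intermediate by *Phgdh*, *Psat1* and *Psph*, is the other source, opened by the serine hydroxymethyltransferases *Shmt1* in the cytosol and *Shmt2* in mitochondria. *Mthfd2* and *Mthfd1l* carry the folate-bound carbon through the mitochondrial steps to formate, and *Mthfd1* acts on folate-bound carbon in the cytosol.

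Values are the TPM deposited by the authors. Between 15404379 and 17300186 reads on genes were recovered from them per library, and a member had between 39 reads (*Gcat*, *Usb1* knockout day 3) and 7891 reads (*Mthfd1*, wild-type day 0) in a library. Wild-type day 0 replicate 1 and *Usb1* knockout day 3 replicate 1 held few genes with a single read, 239 and 1224, against 1352 to 2467 in the other 15 libraries. *Usb1* itself was lower in the knockout at every day, by 1.20, 1.34 and 0.93 on the log2 scale at day 0, 1 and 3 (limma, adjusted p = 3.23e-05, 1.97e-06 and 9.37e-05). The Y-linked gene *Eif2s3y* was listed at 0 TPM in every knockout library and at 61.8 to 85.6 TPM in the wild-type libraries, and the part of this difference in the results was not tested. The pluripotency markers *Pou5f1*, *Sox2*, *Nanog*, *Esrrb* and *Zfp42* summed to 4631 to 5090 TPM in the day 0 libraries of both genotypes, with overlapping ranges. At day 1 their sum was 2777 to 2858 TPM for wild-type and 3527 to 3608 TPM in knockout cells, and at day 3 it was 254 to 294 TPM and 481 to 544 TPM. *Sox2* went against the sum at day 1, with 699 to 752 TPM for wild-type and 643 to 646 TPM in knockout cells. The sum of endoderm markers (*Gata4*, *Gata6*, *Sox17*, *Sox7*, *Afp*) ran the other way, with 64.1 to 66.1 TPM for wild-type and 14.8 to 18.1 TPM in knockout cells at day 1, and 270 to 294 TPM and 122 to 138 TPM at day 3. At day 0 and day 1 *Sox17* and *Afp* were under 1 TPM on average in both genotypes. *Afp* went against the sum at day 3, with 3.37 to 3.786 TPM for wild-type and 3.795 to 4.26 TPM in knockout cells. Fibroblast markers (*Col1a1*, *Col1a2*, *Thy1*, *Dcn*, *Lum*) summed to at most 9.01 TPM at day 0 and day 1, and to 40.5 to 49.7 TPM for wild-type and 62.0 to 69.8 TPM in knockout cells at day 3, with *Lum* under 1 TPM on average in every group. *Col1a2* and *Dcn* were also under 1 TPM on average at day 0 and day 1 in both genotypes. *Dcn* went against the sum at day 3, with 14.2 to 16.4 TPM for wild-type and 13.4 to 14.7 TPM in knockout cells, and these ranges overlapped. How far these mixtures enter the differences at day 1 and day 3 was not tested. In bulk RNA, fewer cells of a type and less RNA per cell cannot be told apart.

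*Phgdh*, *Psat1*, *Shmt2*, *Mthfd2* and *Mthfd1l* were each higher in *Usb1* knockout than in wild-type cells at both day 0 and day 1, and their promoters are shown for that reason. The sequences are RefSeq windows of 300 bases on GRCm38.p6, from 250 bases before the annotated start to 50 bases after it, written along the gene's own strand, with matches to CCAAT (either strand) in capitals. *Mthfd1l* lies on the plus strand, at chr10:3972825-3973124, and the other genes on the minus strand, at chr3:98339920-98340219 for *Phgdh*, chr19:15925010-15925309 for the more upstream of the 2 RefSeq windows of *Psat1*, chr10:127522395-127522694 for *Shmt2* and chr6:83317555-83317854 for *Mthfd2*. The *Psat1* and *Mthfd2* windows lie inside the GENCODE gene spans, whose upstream ends are at 15947337 and 83325908.
Phgdh: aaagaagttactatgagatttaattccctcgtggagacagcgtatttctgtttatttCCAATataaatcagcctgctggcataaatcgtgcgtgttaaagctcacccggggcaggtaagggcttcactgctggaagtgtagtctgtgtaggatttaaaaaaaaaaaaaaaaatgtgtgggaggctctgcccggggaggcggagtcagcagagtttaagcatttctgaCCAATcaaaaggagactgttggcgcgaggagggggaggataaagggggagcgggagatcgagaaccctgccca
Psat1: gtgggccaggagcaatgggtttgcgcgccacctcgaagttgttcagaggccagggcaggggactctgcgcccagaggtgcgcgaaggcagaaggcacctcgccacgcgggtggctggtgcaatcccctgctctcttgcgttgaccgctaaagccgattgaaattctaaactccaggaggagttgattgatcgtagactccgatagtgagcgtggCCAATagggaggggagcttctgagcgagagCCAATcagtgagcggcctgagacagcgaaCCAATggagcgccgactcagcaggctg
Shmt2: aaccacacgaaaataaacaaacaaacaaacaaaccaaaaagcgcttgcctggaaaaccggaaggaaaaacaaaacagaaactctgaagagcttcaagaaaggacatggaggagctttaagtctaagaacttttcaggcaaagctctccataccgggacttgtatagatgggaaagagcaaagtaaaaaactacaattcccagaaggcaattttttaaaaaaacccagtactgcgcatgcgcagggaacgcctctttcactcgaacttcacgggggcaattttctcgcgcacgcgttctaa
Mthfd2: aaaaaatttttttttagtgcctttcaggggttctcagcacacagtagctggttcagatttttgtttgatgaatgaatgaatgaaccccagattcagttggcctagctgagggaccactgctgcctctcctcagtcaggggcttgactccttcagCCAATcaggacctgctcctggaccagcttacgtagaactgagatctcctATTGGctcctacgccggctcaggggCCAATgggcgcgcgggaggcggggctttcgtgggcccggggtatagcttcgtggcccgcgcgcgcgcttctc
Mthfd1l: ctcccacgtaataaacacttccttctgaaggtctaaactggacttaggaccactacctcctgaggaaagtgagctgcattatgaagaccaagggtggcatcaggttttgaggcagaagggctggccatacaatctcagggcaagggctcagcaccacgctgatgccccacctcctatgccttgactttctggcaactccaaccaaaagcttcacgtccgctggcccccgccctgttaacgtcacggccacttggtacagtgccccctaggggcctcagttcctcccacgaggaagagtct
CCAAT, the letters recognised by the trimeric factor NF-Y, stood at -193 and -23 in *Phgdh*, at -36, -6 and 24 in *Psat1* and at -96, -47 (reverse strand) and -22 in *Mthfd2*, counted from the start. The *Shmt2* and *Mthfd1l* windows and the second window of *Psat1*, which is not shown, held none. Over the 10 windows of the 9 members matched in the RefSeq table (*Psat1* has 2, and *Tdh* was not matched), 6 held CCAAT, in *Gldc*, *Mthfd1*, *Mthfd2*, *Phgdh*, *Psat1* and *Shmt1*, against 37.4% of 32851 promoters. CACGTG, the E-box, was found in *Gcat* alone, against 7.15% of promoters. TGATGNAA, the core shared by amino acid response elements, was found in 0 of the 10 windows, against 3.97% of promoters. The motifs do not overlap one another in these windows, both strands were searched, and CCAAT and CACGTG were added after the data had been seen. A match is a description of the letters only.

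**Figure D1:**
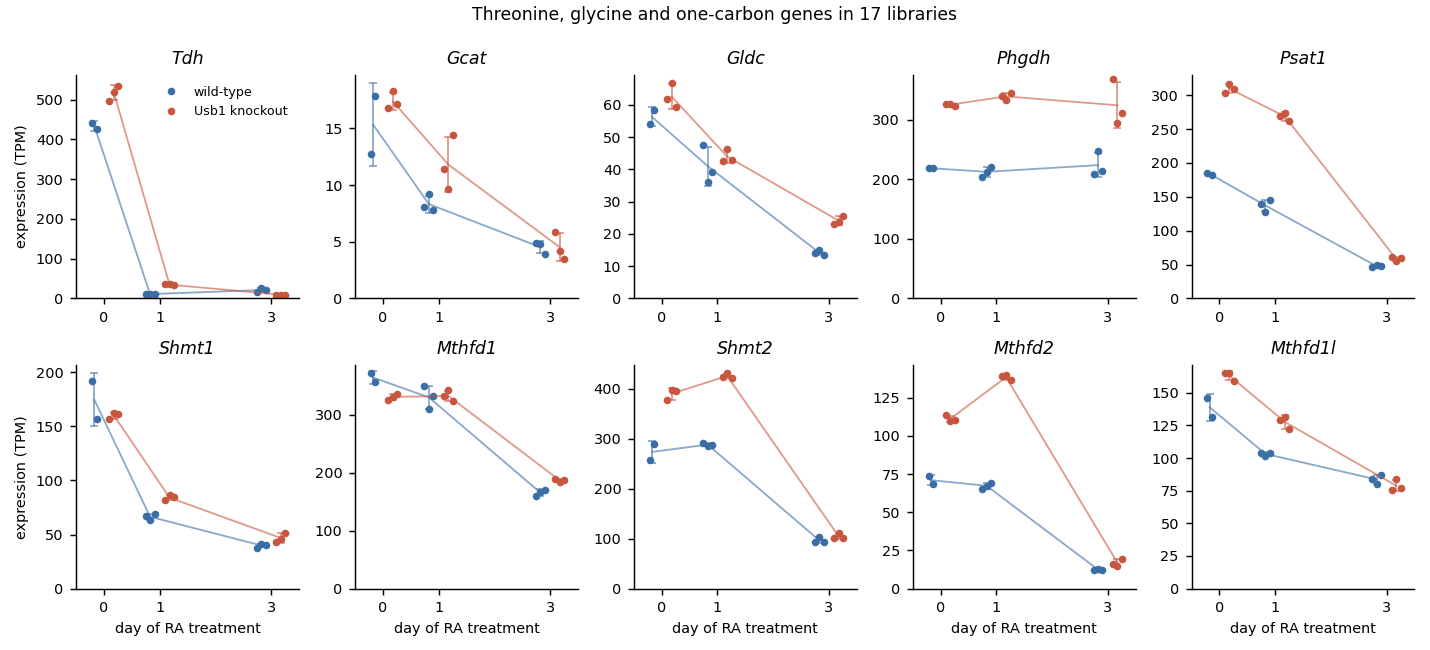
Expression (TPM, vertical axis) of the 10 genes in every library by day of RA treatment (horizontal axis), with points for libraries, lines through group means and bars for 1 SD (n = 2 for wild-type day 0, otherwise 3). *Tdh* is between 426 and 535 TPM at day 0 and at most 35.2 TPM afterwards, while *Phgdh* stays between 204 and 368 TPM throughout.

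*Tdh* (ENSMUSG00000021953; GRCm38 chromosome 14, 63492347 to 63509092, minus strand) commits threonine to the mitochondrial route, and it was the member with the widest range over the 6 groups. Its level was 442 and 426 TPM in the wild-type libraries at day 0 and 498, 521 and 535 TPM in the knockout libraries. At day 1 it was 10.7, 11.4 and 10.02 TPM for wild-type and 35.2, 35.2 and 32.8 TPM in knockout cells. At day 3 it was 16.9, 25.6 and 20.1 TPM for wild-type and 9.48, 9.31 and 8.38 TPM in knockout cells. In order of level the groups ran from knockout day 0 through wild-type day 0, knockout day 1, wild-type day 3 and wild-type day 1 to knockout day 3, and no neighbours in this order overlapped. Among 22046 protein-coding genes, *Tdh* ranked 266 in wild-type cells at day 0, 7078 in wild-type cells at day 3 and 9618 in knockout cells at day 3. The ratio of mean TPM between day 0 and the RA-treated cells was 40.5 at day 1 and 20.8 at day 3 in wild-type, and 15.1 and 57.2 in knockout cells. Thus wild-type cells were lowest at day 1, with a higher level at day 3, whereas knockout cells were lowest at day 3.

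Between the genotypes, *Tdh* was 0.25 ± 0.12 higher in knockout cells at day 0 (log2(TPM + 1) difference ± SE, as for all differences here; adjusted p = 0.187), and this comparison did not pass although the 2 groups did not overlap. At day 1 *Tdh* was higher in knockout cells by 1.60 ± 0.11, and at day 3 it was lower, at -1.11 ± 0.11. The fall of *Tdh* in wild-type cells under RA was known when the genes were chosen. That fall is measured from wild-type day 0. The differences at all 3 days therefore contain wild-type values behind the choice and are given as a description, without a test. All p-values are from limma over 21871 genes and adjusted over all of them, and a gene passed at an adjusted p under 0.05. The knockout change from day 0 minus the wild-type change was 1.34 ± 0.16 at day 1 and -1.36 ± 0.16 at day 3. From day 1 to day 3 the difference between genotypes moved by -2.70 ± 0.15, a comparison added after the data had been seen. These 3 values contain the wild-type response of *Tdh* that was known when the genes were chosen, and they are given as a description, without a test. The direction thus turned between day 1 and day 3. When voom on recovered reads replaced log2(TPM + 1), the difference at day 0 was 0.33. Exons of *Tdh* share 66 bases (2.5% of its exon bases) with *Gm17232* on the opposite strand. *Gm17232* reached 85.5 TPM and was also lower under RA, with a change of -5.52 in wild-type cells at day 1. Whether strand was used in counting is not given in the sources used here, so reads in the shared bases are uncertain.

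At day 0 *Gcat* and *Gldc*, the members downstream of *Tdh* on the threonine route, were at far lower levels than *Tdh*. *Gcat* (ENSMUSG00000006378; chromosome 15, 79030874 to 79038353), which cleaves the product of *Tdh*, stood at 12.7 and 17.9 TPM for wild-type and 16.8, 18.3 and 17.1 TPM in knockout cells at day 0. At day 1 it was 8.02, 9.17 and 7.76 TPM in wild-type against 11.4, 9.61 and 14.4 TPM in knockout cells. At day 3 it was 4.90, 4.79 and 3.89 TPM against 5.85, 4.20 and 3.48 TPM. *Gcat* was lower on each day of RA than at day 0 in both genotypes without overlap, and the knockout differed from wild-type by 0.19 (95% interval -0.23 to 0.61), 0.44 (0.07 to 0.82) and -0.02 (-0.40 to 0.35) at day 0, 1 and 3, none of which passed after adjustment (adjusted p = 0.569, 0.101 and 0.994). Its exons overlap the second *Gcat* row over 1132 bases (47.5%) on the same strand, so reads could have been split between them. The ratio of *Tdh* to *Gcat* TPM was 23.8 to 34.7 at day 0 over both genotypes, and 1.25 to 1.33 in wild-type and 2.28 to 3.66 in knockout cells at day 1.

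*Gldc* (ENSMUSG00000024827; chromosome 19, 30098447 to 30175429, minus strand) decarboxylates glycine in the cleavage system. It was at 54.2 and 58.3 TPM for wild-type and 61.7, 66.8 and 59.3 TPM in knockout cells at day 0, followed by 47.7, 36.0 and 39.2 TPM and 42.6, 46.3 and 43.0 TPM at day 1. At day 3 it was 14.2, 14.9 and 13.5 TPM for wild-type and 23.0, 23.8 and 25.5 TPM in knockout cells. The genotypes overlapped at day 1 and stood apart at day 3, where *Gldc* was higher in knockout cells by 0.72 ± 0.09 (adjusted p = 1.65e-04), against 0.15 ± 0.10 at day 0 (adjusted p = 0.356) and 0.11 ± 0.09 at day 1 (adjusted p = 0.482). The change to day 3 was smaller in knockout cells, with a difference from wild-type of 0.57 ± 0.13 (adjusted p = 0.0229). This call was lost without wild-type day 3 replicate 1, *Usb1* knockout day 3 replicate 3 or *Usb1* knockout day 0 replicate 3, and with libraries scaled to an equal median, with the difference between 0.47 and 0.66 and the adjusted p up to 0.0893 over all alternatives. Among the other genes of the cleavage system, *Amt*, the aminomethyltransferase, was higher in knockout cells at all 3 days, by 0.21 to 0.27 (adjusted p between 0.00266 and 0.0277). *Gcsh* and *Dld* did not pass between genotypes on any day.

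Both members of serine synthesis were higher in knockout cells at every day. *Phgdh* (ENSMUSG00000053398; chromosome 3, 98313170 to 98339990, minus strand), the dehydrogenase that starts the pathway, was at 219 TPM in both wild-type libraries and at 326, 326 and 324 TPM in the knockout libraries at day 0. At day 1 it was 204, 212 and 221 TPM against 340, 333 and 345 TPM, and at day 3 it was 210, 247 and 215 TPM against 368, 294 and 311 TPM. The highest wild-type library, at 247 TPM, was below the lowest knockout library, at 294 TPM. *Phgdh* was higher in knockout cells by 0.57 ± 0.08, 0.67 ± 0.07 and 0.53 ± 0.07 at day 0, 1 and 3 (adjusted p = 7.70e-04, 3.55e-05 and 4.81e-04), and the day 3 difference did not pass when the libraries of that day were fitted alone (adjusted p = 0.0856). Its change from day 0 did not exceed 0.06 in either direction in any group. *Phgdh* was the member whose level moved least under RA, except in knockout cells at day 1, where *Mthfd1* changed by 0.0075.

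*Psat1* (ENSMUSG00000024640; chromosome 19, 15904678 to 15947337, minus strand), the aminotransferase of the next step, was at 185 and 183 TPM for wild-type and 304, 317 and 309 TPM in knockout cells at day 0. At day 1 the values were 139, 128 and 145 TPM against 270, 274 and 262 TPM, and at day 3 they were 45.8, 48.7 and 47.6 TPM against 60.5, 54.6 and 59.1 TPM. Knockout cells were thus above wild-type cells at each day, but by less at day 3. The difference was 0.75 ± 0.06 at day 0 (adjusted p = 3.40e-06), 0.97 ± 0.05 at day 1 (adjusted p = 7.10e-08) and 0.29 ± 0.05 at day 3 (adjusted p = 0.00380), and the last did not pass with libraries scaled to an equal median (0.31, adjusted p = 0.0683) or when the day 3 libraries were fitted alone. It changed from day 0 to day 3 by -0.46 ± 0.08 (adjusted p = 0.00386) and from day 1 to day 3 by -0.68 ± 0.07 (adjusted p = 9.18e-05). *Psat1* TPM per *Phgdh* TPM was 0.836 to 0.847 in wild-type and 0.931 to 0.973 in knockout cells at day 0, and 0.197 to 0.222 and 0.164 to 0.190 at day 3. *Psph*, the phosphatase that ends the pathway and not one of the 10 genes, was higher in knockout cells by 0.75 at day 0 (adjusted p = 6.78e-05), with 24.5 ± 2.55 TPM in wild-type (SD, n = 2) and 41.7 ± 1.504 TPM in knockout cells (SD, n = 3), and was lower at day 3.

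**Figure D2:**
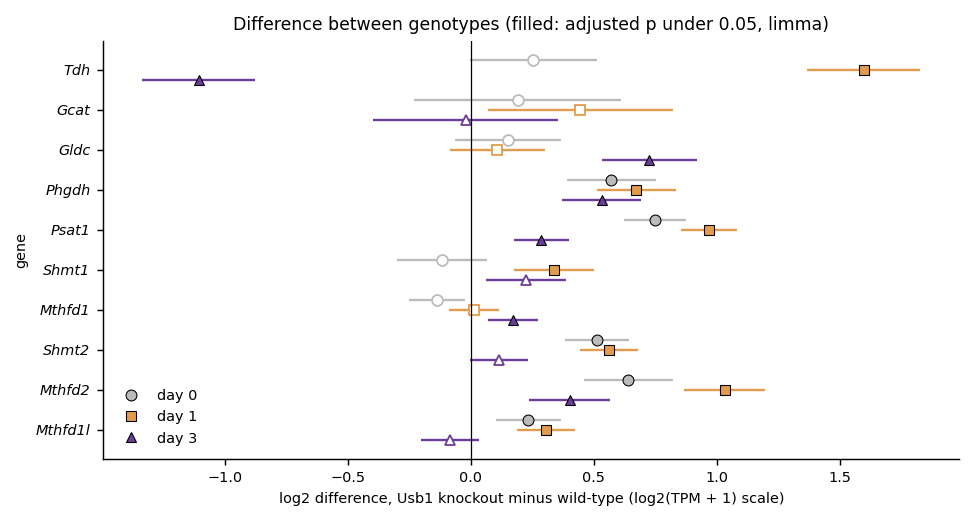
Difference between *Usb1* knockout and wild-type cells in log2(TPM + 1) (horizontal axis) for each gene (vertical axis) at day 0 (circles), day 1 (squares) and day 3 (triangles), with 95% intervals from limma. Filled symbols passed at the adjusted p threshold of 0.05. *Phgdh*, *Psat1* and *Mthfd2* are filled to the right at all 3 days. *Tdh* lies at 1.60 at day 1 and at -1.11 at day 3, and its symbols, filled or not, are a description at all 3 days and not a test.

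Of the serine hydroxymethyltransferases, the mitochondrial *Shmt2* (ENSMUSG00000025403; chromosome 10, 127517123 to 127522444, minus strand) differed between genotypes before and early in RA treatment. It was at 258 and 290 TPM for wild-type and 377, 399 and 395 TPM in knockout cells at day 0, followed by 292, 285 and 289 TPM against 424, 432 and 422 TPM at day 1. At day 3 it was 93.9, 104 and 92.8 TPM against 102, 111 and 101 TPM, and the groups overlapped. *Shmt2* was higher in knockout cells by 0.51 ± 0.06 at day 0 (adjusted p = 1.59e-04) and 0.56 ± 0.05 at day 1 (adjusted p = 1.18e-05), against 0.11 ± 0.05 at day 3 (95% interval -0.01 to 0.23, adjusted p = 0.289). The day 3 difference was smaller, differing from that of day 0 by -0.40 ± 0.08 (adjusted p = 0.0124) and from that of day 1 by -0.45 ± 0.08 (adjusted p = 0.00296). The first of these did not pass without wild-type day 0 replicate 1, and its adjusted p was up to 0.0767 over all alternatives.

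The cytosolic *Shmt1* (ENSMUSG00000020534; chromosome 11, 60788104 to 60811718, minus strand) was at 192 and 157 TPM for wild-type and 157, 163 and 162 TPM in knockout cells at day 0. At day 1 it was 67.5, 63.1 and 68.7 TPM against 81.7, 86.4 and 84.3 TPM, and at day 3 it was 38.0, 41.2 and 40.3 TPM against 42.6, 46.2 and 51.3 TPM. The genotypes overlapped at day 0 (difference -0.12 ± 0.08, adjusted p = 0.405), and *Shmt1* was higher in knockout cells at day 1 by 0.34 ± 0.08 (adjusted p = 0.00768). At day 3 the difference was 0.22 ± 0.08 (adjusted p = 0.1004). The response to day 1 differed between genotypes by 0.45 ± 0.11, which did not pass (adjusted p = 0.0550) but did in 6 of 26 alternatives, among them those without wild-type day 0 replicate 2, *Usb1* knockout day 3 replicate 1 or *Usb1* knockout day 3 replicate 3. *Shmt2* TPM per *Shmt1* TPM was 1.34 to 1.84 in wild-type cells at day 0, 4.20 to 4.52 at day 1 and 2.31 to 2.51 at day 3. In knockout cells it was 2.41 to 2.45, 4.99 to 5.19 and 1.97 to 2.40. The balance was therefore furthest towards the mitochondrial gene at day 1 in both genotypes. *Shmt1* shares 184 exon bases with *Smcr8* and *Shmt2* shares 32 with *Ndufa4l2*, both on the opposite strand.

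**Figure D3:**
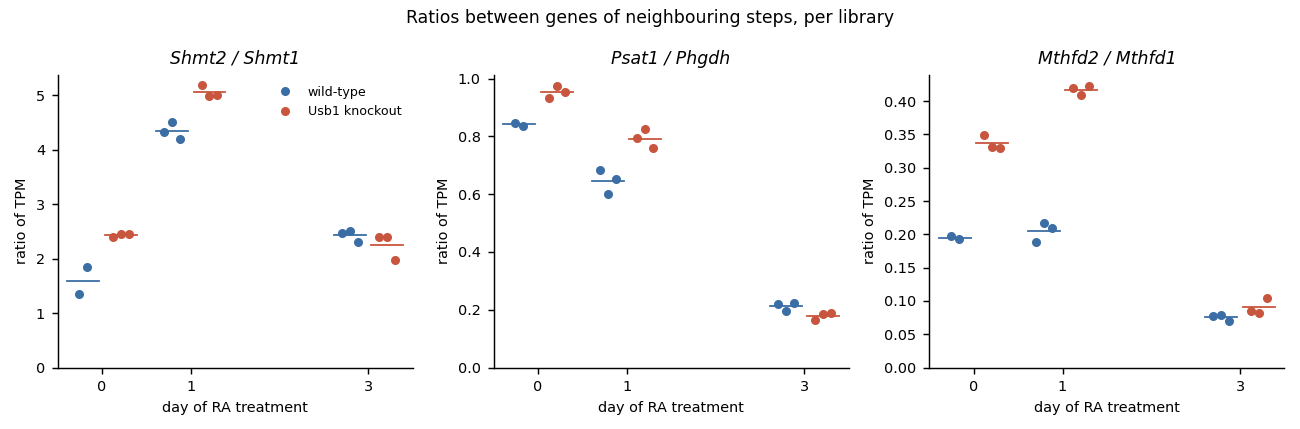
Ratio of TPM between 2 genes of neighbouring or parallel steps (vertical axis, no unit) in each library by day of RA treatment (horizontal axis), with a bar for each group mean. *Shmt2* per *Shmt1* is highest at day 1 in both genotypes, and *Mthfd2* per *Mthfd1* is higher in knockout than in wild-type libraries at day 0 and day 1.

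*Mthfd2* (ENSMUSG00000005667; chromosome 6, 83305691 to 83325908, minus strand), the mitochondrial dehydrogenase and cyclohydrolase, showed the same order of genotypes as *Psat1*. It was at 73.5 and 68.6 TPM for wild-type and 113, 110 and 111 TPM in knockout cells at day 0. At day 1 it was 65.5, 67.0 and 69.4 TPM against 139, 140 and 137 TPM, and at day 3 it was 12.4, 13.1 and 11.8 TPM against 16.1, 14.9 and 19.5 TPM. No knockout library overlapped a wild-type library on the same day. *Mthfd2* was higher in knockout cells by 0.64 ± 0.09, 1.03 ± 0.08 and 0.40 ± 0.08 at day 0, 1 and 3 (adjusted p = 3.62e-04, 9.20e-07 and 0.00477). From day 1 to day 3 the difference changed by -0.63 ± 0.11 (adjusted p = 0.00274). *Mthfd2* TPM per *Mthfd1* TPM was 0.193 to 0.198 in wild-type and 0.330 to 0.349 in knockout cells at day 0, 0.188 to 0.217 and 0.409 to 0.422 at day 1, and 0.0695 to 0.0782 and 0.0812 to 0.105 at day 3. *Mthfd2l*, a second mitochondrial dehydrogenase, did not pass between genotypes on any day, and *Mthfd2* per *Mthfd2l* TPM went from 24.0 to 34.9 at day 0 over both genotypes to 2.26 to 3.93 at day 3.

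*Mthfd1l* (ENSMUSG00000040675; chromosome 10, 3973118 to 4167081), the mitochondrial formate-tetrahydrofolate ligase, was at 146 and 132 TPM for wild-type and 165, 165 and 159 TPM in knockout cells at day 0. It was at 104, 101 and 104 TPM against 130, 132 and 122 TPM at day 1, and at 84.0, 79.8 and 86.9 TPM against 75.7, 83.7 and 77.1 TPM at day 3. *Mthfd1l* was higher in knockout cells by 0.23 ± 0.06 at day 0 (adjusted p = 0.0251) and 0.30 ± 0.05 at day 1 (adjusted p = 0.00186), and the groups overlapped at day 3 (-0.08 ± 0.05, adjusted p = 0.476). The call at day 0 was lost without wild-type day 0 replicate 2, *Usb1* knockout day 0 replicate 1 or *Usb1* knockout day 0 replicate 2, with adjusted p up to 0.142 over the alternatives. The difference moved by -0.32 ± 0.08 from day 0 to day 3 (adjusted p = 0.0361, passed in 14 of 26 alternatives) and by -0.39 ± 0.08 from day 1 to day 3 (adjusted p = 0.00759).

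*Mthfd1* (ENSMUSG00000021048; chromosome 12, 76255298 to 76319803), the cytosolic enzyme with synthase, dehydrogenase and cyclohydrolase activities, had the smallest differences between genotypes at day 1. It was at 372 and 356 TPM for wild-type and 325, 331 and 335 TPM in knockout cells at day 0, followed by 348, 309 and 331 TPM against 332, 342 and 323 TPM at day 1. At day 3 it was 159, 167 and 170 TPM against 188, 184 and 186 TPM. The differences were -0.14 ± 0.05 at day 0 (adjusted p = 0.105), 0.01 ± 0.05 at day 1 (adjusted p = 0.914) and 0.17 ± 0.05 at day 3 (adjusted p = 0.0401). The last passed in 7 of 26 alternatives, and in none that left out a library of the day 3 groups. The difference between genotypes in the change to day 3 was 0.31 ± 0.07 (adjusted p = 0.0205), and it was lost without wild-type day 0 replicate 1 or wild-type day 3 replicate 1, with an equal median (0.20, adjusted p = 0.360) and with voom on recovered reads. *Mthfd1* shares 37 exon bases with *Gm47525* on the opposite strand.

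Counted over the 10 genes, 5 passed higher and 0 lower in knockout cells at day 0, against 5.08% of all genes tested higher and 6.80% lower. At day 1, 7 passed higher and 0 lower, against 3.74% and 13.6%. At day 3, 5 passed higher and 1, *Tdh*, lower, against 3.96% and 3.56%. The median difference of the members was 0.24, 0.50 and 0.20 on the log2 scale at day 0, 1 and 3, while that of all genes tested was 0, -0.13 and 0. Quantile normalization brought the day 1 median of all genes to 0.01, and the 7 members higher at day 1 also passed with it. *Mthfd2*, higher at day 1, was the only member other than *Tdh* that passed with at least a 2-fold change. *Tdh* was at least 2-fold higher at day 1 and at least 2-fold lower at day 3, as a description. Of all genes, 0.462% passed at least 2-fold higher at day 1 and 0.773% at least 2-fold lower at day 3. All 10 genes were above the low-value filter in every group, and since they were chosen with results known, these shares are descriptive. The share of all genes passing between genotypes was larger with a stricter filter on level. At day 1, 3789 of 21871 genes passed in either direction, and 3913 of 14647 with a filter at 5 TPM. The responses to RA differed between genotypes in 1 member at day 1 (2.23% of all genes) and in 6 at day 3 (6.15%). The count at day 1 was 3 without wild-type day 0 replicate 2 or *Usb1* knockout day 3 replicate 3 and 2 without *Usb1* knockout day 3 replicate 1, and the count at day 3 was 3 without wild-type day 3 replicate 1. From day 1 to day 3 the difference between genotypes changed in 6 members (7.61% of all genes), *Gldc* upwards and *Tdh*, *Psat1*, *Shmt2*, *Mthfd2* and *Mthfd1l* downwards. The change of *Gldc*, at 0.62, was 0.40 and did not pass with libraries scaled to an equal median (adjusted p = 0.138). *Tdh* is in each of these counts of responses and in the genotype counts at day 1 and day 3, where its values are a description.

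**Figure D4:**
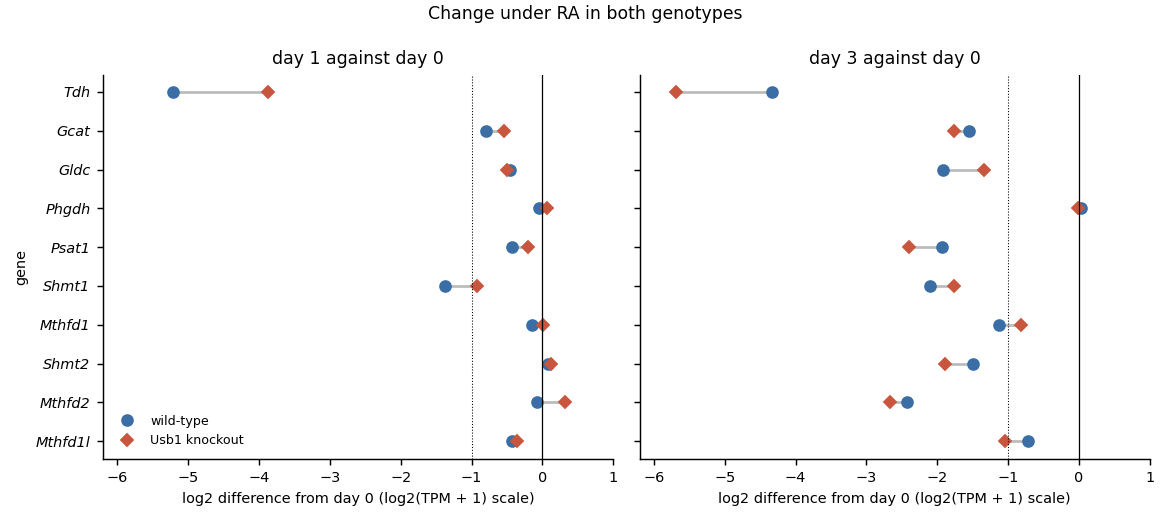
Difference from day 0 in log2(TPM + 1) (horizontal axis) for each gene (vertical axis) at day 1 (left) and day 3 (right) of RA, in wild-type (circles) and *Usb1* knockout cells (diamonds), with the dotted line at a 2-fold lower value. *Tdh* lies at -5.22 and -3.87 at day 1 and at -4.33 and -5.69 at day 3, and *Phgdh* lies at 0.06 or less from 0 in every group.

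More members were at least 2-fold lower at day 3 of RA than at day 1. At day 1, *Tdh* and *Shmt1* were at least 2-fold lower than at day 0 without overlap in wild-type cells, and *Tdh* alone in knockout cells, shares that stood beside 4.30% and 3.37% of all genes tested. At day 3, 8 of the 10 genes met this description in each genotype, beside 9.78% of all genes in wild-type and 8.09% in knockout cells. *Phgdh* was outside it in both, *Mthfd1l* in wild-type cells (-0.73) and *Mthfd1* in knockout cells (-0.82). No member was at least 2-fold higher than at day 0 without overlap, beside 10.5% (day 1) and 16.3% (day 3) of all genes in the wild-type and 4.30% and 13.8% in knockout cells. In wild-type cells the ratio of mean TPM at day 0 to that at day 3 was 5.71 for *Mthfd2*, 4.39 for *Shmt1*, 3.97 for *Gldc*, 3.88 for *Psat1*, 3.39 for *Gcat*, 2.83 for *Shmt2* and 2.20 for *Mthfd1*. In knockout cells it was 6.61 for *Mthfd2*, 5.34 for *Psat1*, 3.86 for *Gcat*, 3.73 for *Shmt2*, 3.43 for *Shmt1*, 2.60 for *Gldc* and 2.07 for *Mthfd1l*. The mitochondrial *Shmt2* and *Mthfd2* were still near their day 0 level at day 1, at 0.08 and -0.08 in wild-type and 0.13 and 0.31 in knockout cells. The 10 genes together summed to 1907 to 1954 TPM for wild-type and 2345 to 2416 TPM in knockout cells at day 0, to 1222 to 1287 and 1786 to 1829 TPM at day 1, and to 678 to 746 and 825 to 891 TPM at day 3, without overlap between genotypes on any day. Day 1 and day 3 were set against the same day 0 libraries within a genotype.

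Across the 17 libraries, which share the steps of RA treatment, *Shmt2* and *Mthfd2* had the most similar profiles among the members (Pearson r = 0.993 on log2(TPM + 1)), followed by *Psat1* with *Mthfd2* (0.981) and *Psat1* with *Shmt2* (0.977). *Phgdh* had the least similar profiles, down to 0.0608 with *Mthfd1*. Outside the list, the genes most like *Tdh* among 11906 candidates were *4930444M15Rik* (r = 0.987), *Rmnd5b* (0.985), *Ppan* (0.984), *Snhg12* (0.979) and *Nop56* (0.978). *Nop56*, a component of the box C/D snoRNA particle, went from 483 TPM in wild-type cells at day 0 to 243 TPM at day 1.

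The wider pathway was examined in 58 further genes, drawn up with earlier results known, of which 54 were tested. The p-values of these genes are therefore descriptive, between genotypes as well as under RA. Between genotypes, 11 were higher and 3 lower in knockout cells at day 0, against 5.08% and 6.80% of all genes tested. At day 1, 18 were higher and 9 lower, against 3.74% and 13.6%. At day 3, 11 were higher and 3 lower, against 3.96% and 3.56%. The median difference of the 54 genes was 0.06, 0.09 and 0.08 on the log2 scale, below that of the 10 members. The amino acid response is a programme by which cells raise amino acid supply and transport. At day 0, 6 of its 8 tested genes were higher in knockout cells, against 5.08% of all genes tested. *Atf4*, its transcription factor, was at 308 ± 4.25 TPM in wild-type (SD, n = 2) and 466 ± 12.0 TPM in knockout cells (SD, n = 3), a difference of 0.60 ± 0.05 (adjusted p = 1.61e-05). *Chac1*, which degrades glutathione, was at 7.07 ± 1.32 and 32.0 ± 0.79 TPM, a difference of 2.04 ± 0.26 (adjusted p = 2.97e-04). *Atf5* was higher by 1.33 (adjusted p = 7.67e-08), *Cebpb* by 1.29 (adjusted p = 4.98e-04), *Trib3* by 0.67 (adjusted p = 0.00316) and *Asns*, the asparagine synthetase, by 0.58 (adjusted p = 8.48e-05).

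At day 1, again 6 of these 8 genes were higher in knockout cells, with *Ddit3* in place of *Cebpb*, and *Sesn2* was lower. The shares of all genes tested were 3.74% higher and 13.6% lower. *Asns* was at 175 ± 9.05 TPM for wild-type and 349 ± 11.6 TPM in knockout cells (SD, n = 3), a difference of 0.99 ± 0.06 (adjusted p = 1.13e-07). *Chac1* was higher by 1.54, *Atf5* by 1.15, *Trib3* by 0.91 and *Atf4* by 0.73 (adjusted p at most 5.36e-04). At day 3 only *Asns* passed, by 0.34 (adjusted p = 0.00224), and *Atf4* was at 232 ± 16.7 and 229 ± 2.35 TPM (SD, n = 3). Among the transporters, *Slc1a4* and *Slc1a5*, which carry neutral amino acids, were higher in knockout cells at day 0 by 0.67 and 0.73 (adjusted p = 0.00518 and 0.00141). At day 1, *Slc1a4* was higher by 0.93 (adjusted p = 1.11e-04), and *Slc7a5* and *Slc3a2*, the subunits of a large neutral amino acid transporter, by 0.66 and 0.68 (adjusted p = 6.99e-04 and 1.18e-04). *Slc38a2* went the other way, lower, with a difference of -0.43 at day 0 and -0.52 at day 1 (adjusted p = 0.0216 and 0.00248).

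**Figure D5:**
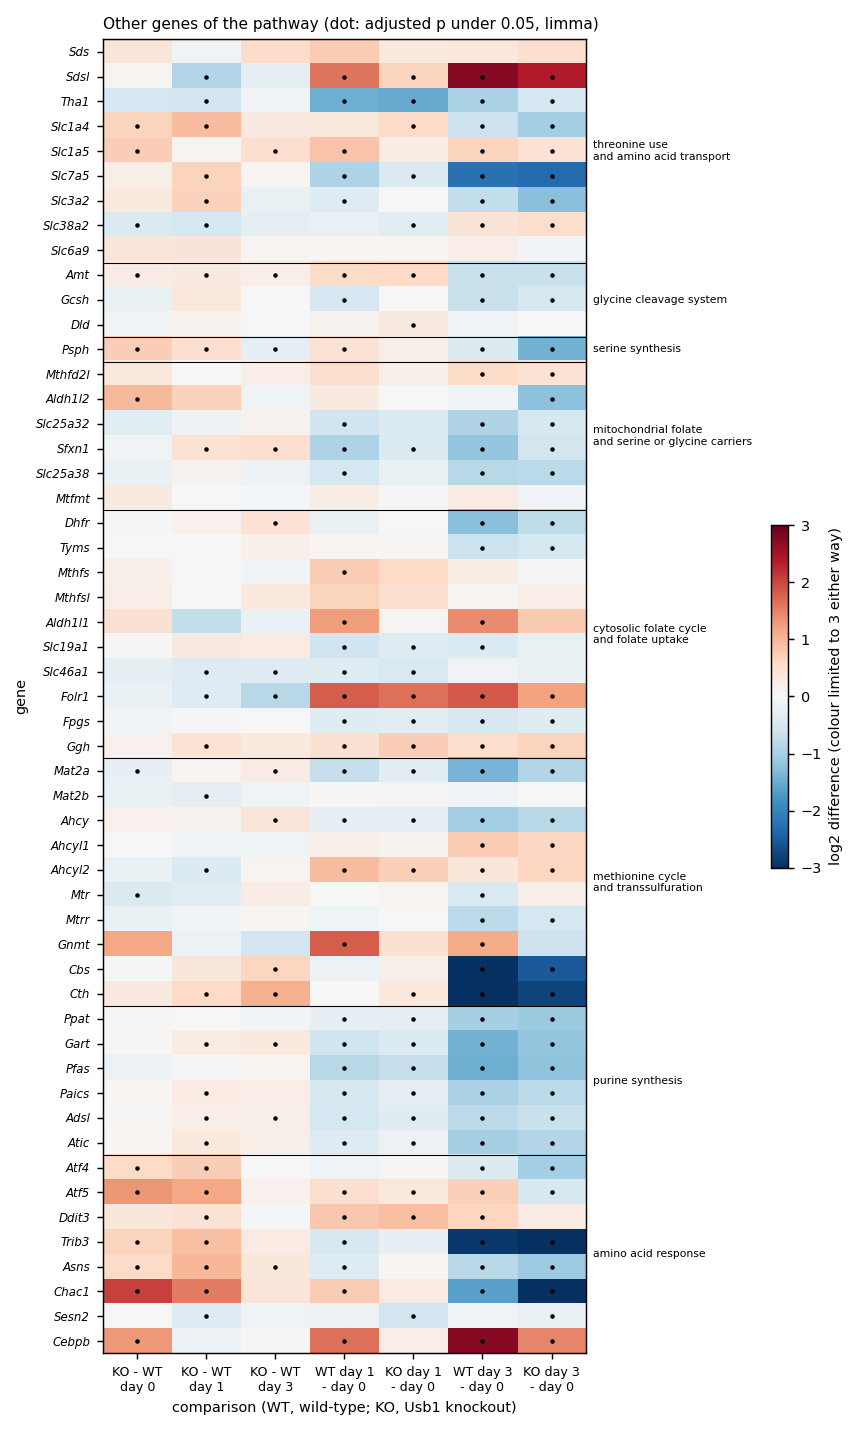
Differences in log2(TPM + 1) (colour, limited to 3 in either direction) of 53 of the 54 tested genes of the wider pathway (rows, grouped by role) in 7 comparisons (columns), with a dot where the adjusted p from limma passed. The block of amino acid response genes is mostly red in the first 2 columns, and all 6 purine synthesis genes are blue with a dot in the 4 RA columns.

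In the folate cycle and its outlets, genes passed in both directions between genotypes. Mitochondrial *Aldh1l2* was at 0.912 ± 0.540 TPM in wild-type (SD, n = 2) and 2.72 ± 0.650 TPM in knockout cells (SD, n = 3) at day 0, a difference of 0.97 ± 0.26 (adjusted p = 0.0253) that was lost with a pseudocount of 0.1, with the day 0 libraries alone and without wild-type day 0 replicate 1, *Usb1* knockout day 0 replicate 1 or *Usb1* knockout day 0 replicate 2. *Folr1*, a folate receptor, was lower in knockout cells at day 3, at -0.83 (adjusted p = 4.27e-05). *Sdsl*, a serine dehydratase-like gene, was lower at day 1, at -0.87 (adjusted p = 0.0199), at 2.28 ± 0.20 against 0.822 ± 0.390 TPM (SD, n = 3), and this was lost without wild-type day 1 replicate 1, wild-type day 1 replicate 3 or *Usb1* knockout day 1 replicate 3, and with a pseudocount of 0.1, quantile or equal-median scaling or voom on recovered reads (adjusted p up to 0.106). Of the 6 purine synthesis genes, *Gart*, *Paics*, *Adsl* and *Atic* were higher in knockout cells at day 1, by 0.21 to 0.29 (adjusted p between 0.00176 and 0.0340). Of all genes tested, 3.74% were higher at day 1. *Cth* and *Cbs* of transsulfuration, which turns homocysteine into cysteine, were higher in knockout cells at day 3 by 1.07 and 0.65 (adjusted p = 8.05e-06 and 0.00864), and *Cth* at day 1 by 0.60 (adjusted p = 5.43e-04).

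Under RA, 15 of the 54 genes rose and 20 fell in wild-type cells at day 1, against 25.5% and 12.5% of all genes tested, and 14 rose and 30 fell at day 3, against 29.6% and 22.5%. In knockout cells 10 rose and 16 fell at day 1 (16.0% and 11.7% of all genes), and 10 rose and 31 fell at day 3 (29.7% and 21.8%). All 6 purine synthesis genes fell in each of these comparisons, in wild-type cells at day 3 by -0.79 (*Adsl*) to -1.46 (*Pfas*). The largest falls at day 3 in wild-type cells were those of *Cth* (-3.55), *Cbs* (-3.22) and *Trib3* (-2.89), and in knockout cells those of *Chac1* (-3.33), *Trib3* (-3.32) and *Cth* (-2.79), with adjusted p at most 1.77e-08. *Cth* went from 110 ± 8.08 TPM in wild-type cells at day 0 (SD, n = 2) to 8.51 ± 1.62 TPM at day 3 (SD, n = 3). *Sdsl*, *Cebpb* and *Folr1* rose most at day 3 in both genotypes, by 2.73, 2.72 and 1.83 in wild-type and 2.38, 1.47 and 1.20 in knockout cells (adjusted p at most 1.76e-06). At day 1, *Folr1* rose by 1.82 in wild-type and 1.64 in knockout cells, and *Tha1*, a threonine aldolase, fell by 1.47 and 1.52. *Gnmt* and *Cebpb* rose by 1.81 and 1.66 in wild-type cells at day 1 (adjusted p = 0.00206 and 5.34e-06). The genes with p-values here were named as the largest changes that passed, from a list drawn up with earlier results known. Their p-values are therefore descriptive.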

How the data were processed

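Bulk RNA-seq was available for 17 libraries of R1/E cells, and groups follow the sample labels. Libraries were made with the NEBNext Ultra RNA kit and sequenced on an Illumina NovaSeq. The authors deposited TPM, which they computed from gene length and the reads counted on each gene. The submitters' processing notes name HISAT2 (2.1.0), StringTie (1.3.6) and GRCm38.p6, and the counter and strand setting are not given in the sources used here. The authors tested differential expression with DESeq2 on counts. TPM is not a count, so limma (3.58.1, R 4.3.3) was fitted here on log2(TPM + 1) with the means of the 6 groups and a variance trend, for the 21871 genes with at least 1 TPM in at least 2 libraries, with Benjamini-Hochberg adjustment over all of them. A fold change on this scale understates the change of low genes. The replicates are separate biological samples by the study's methods, and p-values measure the spread between them.

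Reads were recovered as TPM times exon length (GENCODE M21, 54495 of 54532 identifiers) over a step per library, and 95.9% to 96.7% of values above 0 were whole within 0.01. No counting interval is given, since the spread between replicates sets the precision. Positions are from GENCODE M21 (GRCm38) and promoters from RefSeq (GRCm38.p6). The code was tested on simulated data. Figures were drawn with matplotlib 3.10.9 and tables made with pandas 2.3.3 and numpy 2.4.6 in Python 3.11.15.

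The 10 members and the lists of pathway genes and cell type markers were chosen with earlier results of these data known, so counts over them support nothing on their own. The genes named are the 10 members, *Usb1*, the pathway genes that passed between genotypes with at least a 1.5-fold change, in each RA comparison up to 3 pathway genes with the largest rise and fall among those that passed with at least a 2-fold change, and the 5 genes most like *Tdh* with a group mean of at least 10 TPM. The counts over the pathway include 1 gene that is not reported here by itself. *Eif2s3y*, *Gm17232*, *Gcsh*, *Dld*, *Amt*, *Ddit3*, *Sesn2*, *Slc38a2*, *Mthfd2l*, the markers and the purine genes, with *Asns* at day 0 and day 3, were named after their values were seen. Alternatives were a pseudocount of 0.1, no filter, a filter at 5 TPM, a 2-fold minimum, quantile and median scaling, the libraries of a comparison alone, the replicate number as a block, voom on recovered reads and each library left out. Added after seeing the data were the comparison of day 3 against day 1, leaving out both libraries with few genes of a single read, and 2 promoter motifs.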

Additional observations from a re-analysis of the deposited data

Results flagged for a closer look

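The genotypes differed in their response to RA in the following members. The calls for members other than *Tdh* are by the test of the difference itself (limma, adjusted over all genes tested). Each value is the knockout change minus the wild-type change on the log2(TPM + 1) scale. At day 1 against day 0 no member other than *Tdh* passed, and the value of *Tdh* was 1.34. The values of *Tdh* contain its wild-type response, which was known when the genes were chosen, and they are given without a p-value, as a description. Whether the responses of the other members guided the choice is not recorded, so their p-values are descriptive. The groups of each genotype and day did not overlap for this gene. At day 3 against day 0 the values were -1.36 for *Tdh*, -0.46 for *Psat1* (adjusted p = 0.00386), -0.40 for *Shmt2* (0.0124) and -0.32 for *Mthfd1l* (0.0361), which were relatively lower in knockout cells, and 0.57 for *Gldc* (0.0229) and 0.31 for *Mthfd1* (0.0205), which were relatively higher.

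At day 3 against day 1, a comparison chosen after seeing the data, the values were -2.70 for *Tdh*, -0.68 for *Psat1* (adjusted p = 9.18e-05), -0.63 for *Mthfd2* (0.00274), -0.45 for *Shmt2* (0.00296) and -0.39 for *Mthfd1l* (0.00759), with 0.62 for *Gldc* (0.00908). With libraries scaled to an equal median, *Gldc* did not pass in either comparison and *Mthfd1* did not pass at day 3 against day 0. The summed pluripotency markers differed between genotypes at day 1 and day 3 as well, and their part in these differences was not tested.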

How the results depend on the processing

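Of the counts over members or pathway genes, 415 of their alternative values stayed within 1.5 times the main count and 28 did not. *Tdh* enters the counts over members as a description. For the cause of the changes below, the 2-fold minimum calls fewer genes and the libraries of a comparison alone leave fewer degrees of freedom by construction. For the others the cause was not tested.

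With a 2-fold minimum, the members passing between genotypes were 0, 2 and 1 at day 0, 1 and 3, those differing in response were 1 at day 3 and 1 at day 3 against day 1, and the pathway genes passing were 3, 2 and 1 between genotypes at day 0, 1 and 3, 6 (day 1) and 16 (day 3) under RA in the wild-type, and 2 and 17 in knockout cells. With the libraries of the comparison alone, members passing between genotypes were 3 at day 0 and 2 at day 3, pathway genes were 4 and 4, and members differing in response at day 1 were 2. Among the named genes this fit lost the calls between genotypes of *Shmt2*, *Mthfd1l*, *Aldh1l2*, *Cebpb*, *Psph*, *Slc1a4*, *Slc1a5* and *Trib3* at day 0 and of *Phgdh*, *Psat1*, *Mthfd1*, *Mthfd2* and *Cbs* at day 3, and those of *Shmt2* and *Mthfd1l* in the response to day 3. The count of members differing in response at day 1 was also 2 with a filter at 5 TPM, 2 with quantile normalization and 3 with voom on recovered reads. Scaling to an equal median gave 8 pathway genes between genotypes at day 3 and 2 members at least 2-fold lower in knockout cells at day 1.

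Leaving out one library, where an arm left with a single wild-type day 0 library was assumed to vary like the other groups, gave 1 to 3 members differing in response at day 1, 3 to 6 at day 3, and 9 to 18 and 9 to 16 pathway genes between genotypes at day 0 and day 3. The lowest values came without *Usb1* knockout day 0 replicate 2 (9, day 0) and *Usb1* knockout day 3 replicate 3 (9, day 3), the highest without wild-type day 0 replicate 2 (18) and replicate 1 (16). Over all genes, the number passing between genotypes at day 0, 2598, was 1199 without wild-type day 0 replicate 1, 5017 without replicate 2 and 178 with the libraries of the comparison alone.

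The values that changed sign were all of differences that had not passed. With quantile normalization they were -0.0073 for *Mthfd1* at day 1, 0.0047 for *Gcat* at day 3 and 0.042 for the response of *Gldc* to day 1. With an equal median they were 0.010 for *Shmt1* at day 0, 0.069 for the response of *Gldc* to day 1 and -0.064 for *Mthfd1* at day 3 against day 1. Without both libraries with few genes of a single read they were -0.040 for *Gcat* and 0.026 for *Shmt1* at day 0, and 0.0090 for *Gldc* and -0.0064 for *Mthfd1l* in the response to day 1. Leaving out one library, the differences between genotypes ranged from -0.040 to 0.42 for *Gcat* and -0.26 to 0.026 for *Shmt1* at day 0, -0.033 to 0.053 for *Mthfd1* at day 1 and -0.19 to 0.12 for *Gcat* at day 3. The responses ranged from -0.13 to 0.069 for *Gldc*, -0.0064 to 0.15 for *Mthfd1l* and -0.035 to 0.13 for *Shmt2* at day 1, and from -0.44 to 0.018 for *Gcat* and -0.13 to 0.033 for *Phgdh* at day 3.

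Samples with the same replicate number did not deviate together (correlations of deviations from the group means between -0.130 and 0.124 over 40 pairs, 1 of them over 0.1), so the numbers were not taken to pair the samples. With the replicate number as a block, 5, 7 and 5 members passed between genotypes at day 0, 1 and 3, and 1 and 5 differed in response at day 1 and day 3. Depth limits mainly *Gcat*, with 39 to 208 reads per library.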
